A study of Mus musculus with 2 samples.

Results

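The genes described here are the cannabinoid receptor Cnr1 and 7 enzymes that make or break down its lipid ligands: Dagla, Daglb, Mgll, Abhd6, Abhd12, Napepld and Faah. They were taken by gene symbol, 8 of 55536 annotated genes, whatever their level. The animals were 2 male B6CASTF1/J adults, hybrids of the C57BL/6J and CAST/EiJ mouse strains, 8 to 10 months of age, and the tissue was a hippocampal layer. Each animal gave 1 strand-keeping library from 300 ng of total RNA after ribosomal RNA reduction, with ERCC control RNAs spiked in. The labels number the mouse of replicate 1 as animal 2 and that of replicate 2 as animal 4. Both carry 1 donor entry, so the spread between libraries may be partly technical, and no treatment is named. The labels define 1 group, so the data give levels, transcript forms and the difference between 2 libraries, and no contrast of conditions.

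Endocannabinoids are lipids that neurons make on demand in the postsynaptic membrane and that act backwards across the synapse. They bind the CB1 receptor on axon terminals, which signals through inhibitory G proteins and lowers transmitter release. In the hippocampus CB1 protein is known to be densest on terminals of cholecystokinin interneurons and sparser on glutamatergic terminals. The main ligand, 2-arachidonoylglycerol (2-AG), is made from diacylglycerol and hydrolysed by serine hydrolases, whereas anandamide is an N-acylethanolamine with its own enzymes.

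The libraries held 23458117 expected counts (estimated reads, with shared reads divided among features) in replicate 1 and 29584307 in replicate 2. Glutamatergic (4 of 4), GABAergic (3 of 3), cholecystokinin interneuron (5 of 5), astrocyte (4 of 4), oligodendrocyte (4 of 4), microglial (4 of 4) and endothelial (3 of 3) markers were all at 1 TPM or more in both libraries. TPM states a transcript level as a share of all transcripts, corrected for length. The cholecystokinin interneuron set summed to 271.57 and 288.22 TPM, of which Cck alone gave 252.53 and 268.41. Its lowest marker, Slc17a8, was just above the cutoff, at 1.22 and 1.15 TPM. The 5 choroid plexus markers summed to 15.9 TPM in replicate 1 and 1760 TPM in replicate 2. In bulk RNA, fewer cells of a type and less RNA per cell cannot be told apart.

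The forms of Mgll, Dagla, Faah and Abhd12 named beside the stretches printed here differ at them, and most pairs also differ elsewhere. The stretches run 5′ to 3′ on the transcript strand of mm10 with GENCODE M21 transcript names. For Mgll, capitals mark the 48 bases annotated as coding in Mgll-207 before the start of the shorter reading frame. For Dagla, capitals mark the 23 bases (chr19:10270988-10271010) that Dagla-202 lacks. For Faah, capitals mark the beginning of the 205-base intron (chr4:115998616-115998820) that Faah-203 keeps. For Abhd12, capitals mark the 83-base exon (chr2:150837352-150837434) that Abhd12-205 skips and the 60-base exon (chr2:150842511-150842570) that opens Abhd12-207 alone.
Mgll-207 coding start: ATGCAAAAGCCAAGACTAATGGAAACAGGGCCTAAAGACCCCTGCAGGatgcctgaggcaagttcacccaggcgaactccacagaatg
Mgll-204 coding start: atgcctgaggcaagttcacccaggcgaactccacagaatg
Dagla-201 exon end: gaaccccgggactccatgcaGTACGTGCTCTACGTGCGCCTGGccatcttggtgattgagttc
Dagla-202 junction: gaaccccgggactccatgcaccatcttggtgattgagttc
Faah-201 junction: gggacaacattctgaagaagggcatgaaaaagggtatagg
Faah-203 boundary: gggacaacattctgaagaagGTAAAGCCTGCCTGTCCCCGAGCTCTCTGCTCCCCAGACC
Abhd12-201 across the exon: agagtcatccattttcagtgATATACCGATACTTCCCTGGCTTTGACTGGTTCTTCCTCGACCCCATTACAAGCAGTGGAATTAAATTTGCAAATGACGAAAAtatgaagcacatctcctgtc
Abhd12-205 junction: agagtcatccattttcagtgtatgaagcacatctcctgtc
Abhd12-207 first exon: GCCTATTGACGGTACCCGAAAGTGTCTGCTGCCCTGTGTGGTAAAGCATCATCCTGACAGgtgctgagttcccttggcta

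All 8 genes were detected in both libraries, as were 13016 protein-coding genes among the 55536 annotated genes of all classes. Detection alone does not set the 8 apart. Abhd12, a hydrolase of 2-AG and of lysophosphatidylserine, had the highest level, at 165.91 TPM in replicate 1 and 165.36 TPM in replicate 2. Cnr1 and Mgll followed together, then Faah, Dagla and Abhd6, and the lowest levels were those of Daglb and Napepld. The median level of the 8 genes was 58.2 TPM, beside 17.4 TPM over 13016 protein-coding genes at 1 TPM or more in both libraries. The order was the same in both libraries. For 27 of the 28 pairs of genes, the deposited TPM bounds of the higher gene lay above those of the lower gene in both libraries. These bounds cover counting and read assignment only, and no source used here gives their level. The exception was Cnr1 and Mgll, neighbours whose bounds overlapped and whose ratio of levels was 1.03 and 1.02. A second quantifier, run by the authors on the same reads, kept 27 of 28 mean orders and placed Mgll (71.9 TPM) above Cnr1 (70.6 TPM).

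**Figure D1:**
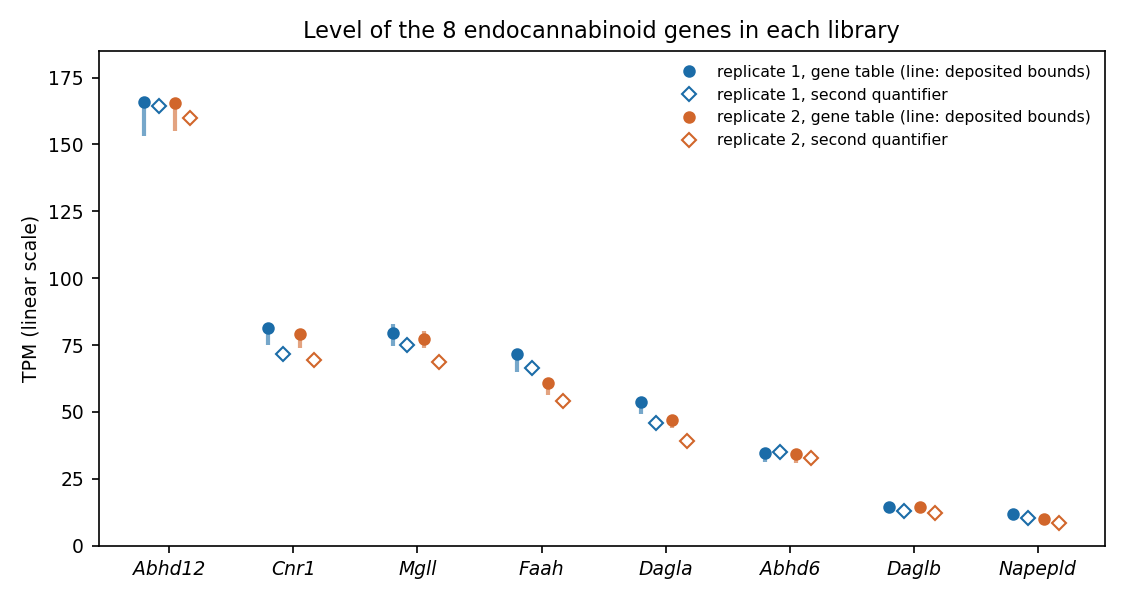
TPM (linear axis) of each of the 8 genes in each library, ordered by mean level. Filled points are the gene table with lines for its deposited bounds, and open diamonds are the second quantifier. Abhd12 stands near 165 TPM in both libraries and Napepld near 10, while the points of Cnr1 and Mgll lie side by side.

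Cnr1, the receptor gene (ENSMUSG00000044288.6, chr4:33924593-33948831, plus strand), was at 81.53 TPM in replicate 1 and 79.08 TPM in replicate 2, a mean of 80.3 ± 1.73 TPM (SD, n = 2, as for all means below). It lay above 89.7% of the detected protein-coding genes, on 6348 and 8303 expected counts. The libraries differed little, and their bounds of 75.16 to 81.04 TPM and 74.00 to 79.14 TPM overlapped. The replicate 1 level itself lay above its own upper bound, as did the levels of Dagla in both libraries and of Abhd12 in replicate 1. Such a misfit in at least 1 library occurred for 8.27% of the detected protein-coding genes and for these 3 of the 8.

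The coding part of Cnr1 is a single uninterrupted stretch of 1419 bases (chr4:33943614-33945032) in exon 2. Cnr1-201 and Cnr1-202 carry the same coding sequence and differ in their opening exon, so the measured choice was between transcript starts and not between proteins. Cnr1-201 took 82.7% of the gene's TPM in replicate 1 and 88.34% in replicate 2. Cnr1-202, which starts downstream at position 33926202, took 13.75% and 8.03%. Cnr1-203, a processed transcript that lacks the coding exon, took 3.56% and 3.63%. The second quantifier gave the same order with a smaller lead, at 69.8% and 75.2% for Cnr1-201 against 20.3% and 15.1% for Cnr1-202.

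The sequence before the 2 Cnr1 starts differed in base composition. It is shown from the RefSeq promoter table (GRCm38.p6, the build also called mm10), cut at the first GENCODE exon base, with every CG in capitals. The RefSeq table held 10 windows of 300 bases for 6 of the 8 genes, among 32851 windows in all.
Cnr1 upstream of the Cnr1-201 and Cnr1-203 exon, chr4:33924394-33924592: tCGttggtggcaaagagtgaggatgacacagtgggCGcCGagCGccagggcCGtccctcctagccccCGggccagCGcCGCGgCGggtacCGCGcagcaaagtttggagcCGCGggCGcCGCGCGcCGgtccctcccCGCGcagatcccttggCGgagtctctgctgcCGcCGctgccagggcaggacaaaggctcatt
Cnr1 upstream of the Cnr1-202 exon, chr4:33926130-33926201: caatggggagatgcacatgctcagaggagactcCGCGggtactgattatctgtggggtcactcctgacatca
The upper stretch holds 24 CG in 199 bases and the lower holds 2 in 72 bases. The whole windows, built around RefSeq starts, also reach into exons. That around 33924644, near the Cnr1-201 start at 33924632, had 33 CG and 69.0% G or C. That around 33926380 had 5 CG and 46.3%, but most of it lies inside the Cnr1-202 exon, which begins at 33926202. These whole-window values therefore do not compare upstream sequence alone. A further Cnr1 window, chr4:33924014-33924313, lies wholly upstream of the annotated exons and had 40 CG and 76.3% G or C. The median window of all genes had 7 CG and 52.7% G or C. Searched on both strands, TATAAA was in 0 of the 10 windows of the 6 genes and in 13.6% of all windows, CCAAT in 1 and in 37.4%, and GGGCGG in 6 and in 35.7%. Some genes have more than 1 window, and some windows overlap, such as those of Abhd6 (chr14:8002638-8002937 and chr14:8002716-8003015). The 10 windows are therefore not independent. These matches describe letters only, and no enrichment is read from them.

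The diacylglycerol lipases, which make 2-AG, were unequal. Dagla (ENSMUSG00000035735.10, chr19:10245265-10304877, minus strand) encodes the isoform known to supply synaptic 2-AG from dendritic spines. It was at 53.56 TPM in replicate 1 and 47.08 TPM in replicate 2, a mean of 50.3 ± 4.58 TPM. Daglb (ENSMUSG00000039206.13, chr5:143464584-143505942, plus strand), the isoform better known from macrophages and microglia, was at 14.63 and 14.37 TPM, a mean of 14.5 ± 0.184 TPM. Dagla made up 78.5% and 76.6% of the summed lipase TPM, and its lowest bound lay above the highest bound of Daglb. The bounds of Dagla lay apart between the libraries, 49.29 to 53.14 TPM against 44.04 to 46.99 TPM.

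Nearly all Dagla RNA was the protein-coding Dagla-201, at 96.07% and 97.71% of the gene's TPM. Dagla-202, whose missing 23 bases are printed above, is annotated as a target of nonsense-mediated decay, the removal of RNA with an early stop codon. It was listed at 0 in both libraries by both quantifiers, with upper bounds of 3.494 and 1.503 TPM. The processed transcript Dagla-203 took the remaining 3.93% and 2.29%. Of Daglb, Daglb-201 took 83.13% and 90.53%, and 3 retained-intron transcripts shared the rest, of which Daglb-204 was the largest at 7.95% and 5.84%. The 3′ end of Daglb overlaps Rac1, a small GTPase gene on the opposite strand at 196.11 and 200.75 TPM. The kit keeps strand, but no source used here says whether counting used it, so reads in the shared stretch are of uncertain origin.

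Breakdown of 2-AG is shared by Mgll, Abhd6 and Abhd12, which summed to 280.16 TPM in replicate 1 and 277.04 TPM in replicate 2. The lipases that make it summed to 68.19 and 61.45 TPM. These sums set 3 genes beside 2 and do not measure enzyme capacity. The breakdown sums include 60.67 and 43.96 TPM of Abhd12 transcripts not annotated as protein-coding. Mgll (ENSMUSG00000033174.17, chr6:88724412-88828360, plus strand) encodes monoacylglycerol lipase, known for most 2-AG hydrolysis in brain and placed in axon terminals and astrocytes. It was at 79.46 and 77.31 TPM, a mean of 78.4 ± 1.52 TPM. Abhd6 (ENSMUSG00000025277.14, chr14:8002902-8056763, plus strand) encodes a postsynaptic membrane hydrolase. It was at 34.79 and 34.37 TPM, a mean of 34.6 ± 0.297 TPM. Abhd12 (ENSMUSG00000032046.15, chr2:150832493-150904741, minus strand) had a mean of 165.6 ± 0.389 TPM and lay above 96.4% of the detected protein-coding genes.

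The 3 hydrolases were unequal by messenger level, which is not a measure of their activity. Abhd12 made up 59.2% and 59.7% of their summed TPM, Mgll 28.4% and 27.9%, and Abhd6 12.4% in each library. When only transcripts annotated as protein-coding were summed, a choice made after seeing the data, Abhd12 made up 48.8% and 52.8% and Mgll 35.1% and 32.3%. Abhd12 stayed the highest of the 3 in both libraries and with both quantifiers.

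Mgll was the only one of the 8 whose leading transcript was not the same in both libraries. Mgll-201 led in replicate 1 with 44.10% against 38.42% for Mgll-204. Mgll-204 led in replicate 2 with 47.25% against 34.44% for Mgll-201. Neither lead cleared the deposited bounds. Those of Mgll-201 and Mgll-204 were 25.13 to 42.14 and 20.96 to 35.59 TPM in replicate 1. In replicate 2 they were 18.82 to 32.96 and 29.10 to 40.42 TPM. The second quantifier gave Mgll-204 the lead in both, at 55.2% and 63.6%, with 11.2% and 11.9% for Mgll-201. Over all 11796 detected protein-coding genes with several transcripts, the leading transcript was the same in both libraries for 84.6%, and the same with both quantifiers as well for 66.8%. Among the 8 genes these counts were 7 and 7, with Mgll left out of each.

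The 2 leading Mgll transcripts encode the same 909-base reading frame and differ in the exon that opens them. The opening exons do not overlap, at 351 bases in Mgll-201 and 160 bases in Mgll-204. Mgll-201 nevertheless has 0 bases that no other Mgll transcript shares, because the opening exon of Mgll-207 contains its own. The 5 transcripts that splice from the upstream opening exon took 44.3% and 51.2% of Mgll TPM in the gene-table program, and 67.0% and 68.1% with the second quantifier. Mgll-207, annotated with the added 48 coding bases and a 957-base frame, took 8.39% and 12.13%, or 17.6% and 16.1% with the second quantifier. Its reading frame extends the protein at its amino end, and it too has 0 bases of its own. The opening exon of Mgll-201 (88724828 to 88725178) also spans position 88725151, where the longer frame begins. The shares of Mgll-207 therefore do not measure all RNA that holds this start. The antisense gene Gm26588 overlaps the beginning of Mgll at 1.35 and 1.59 TPM.

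**Figure D2:**
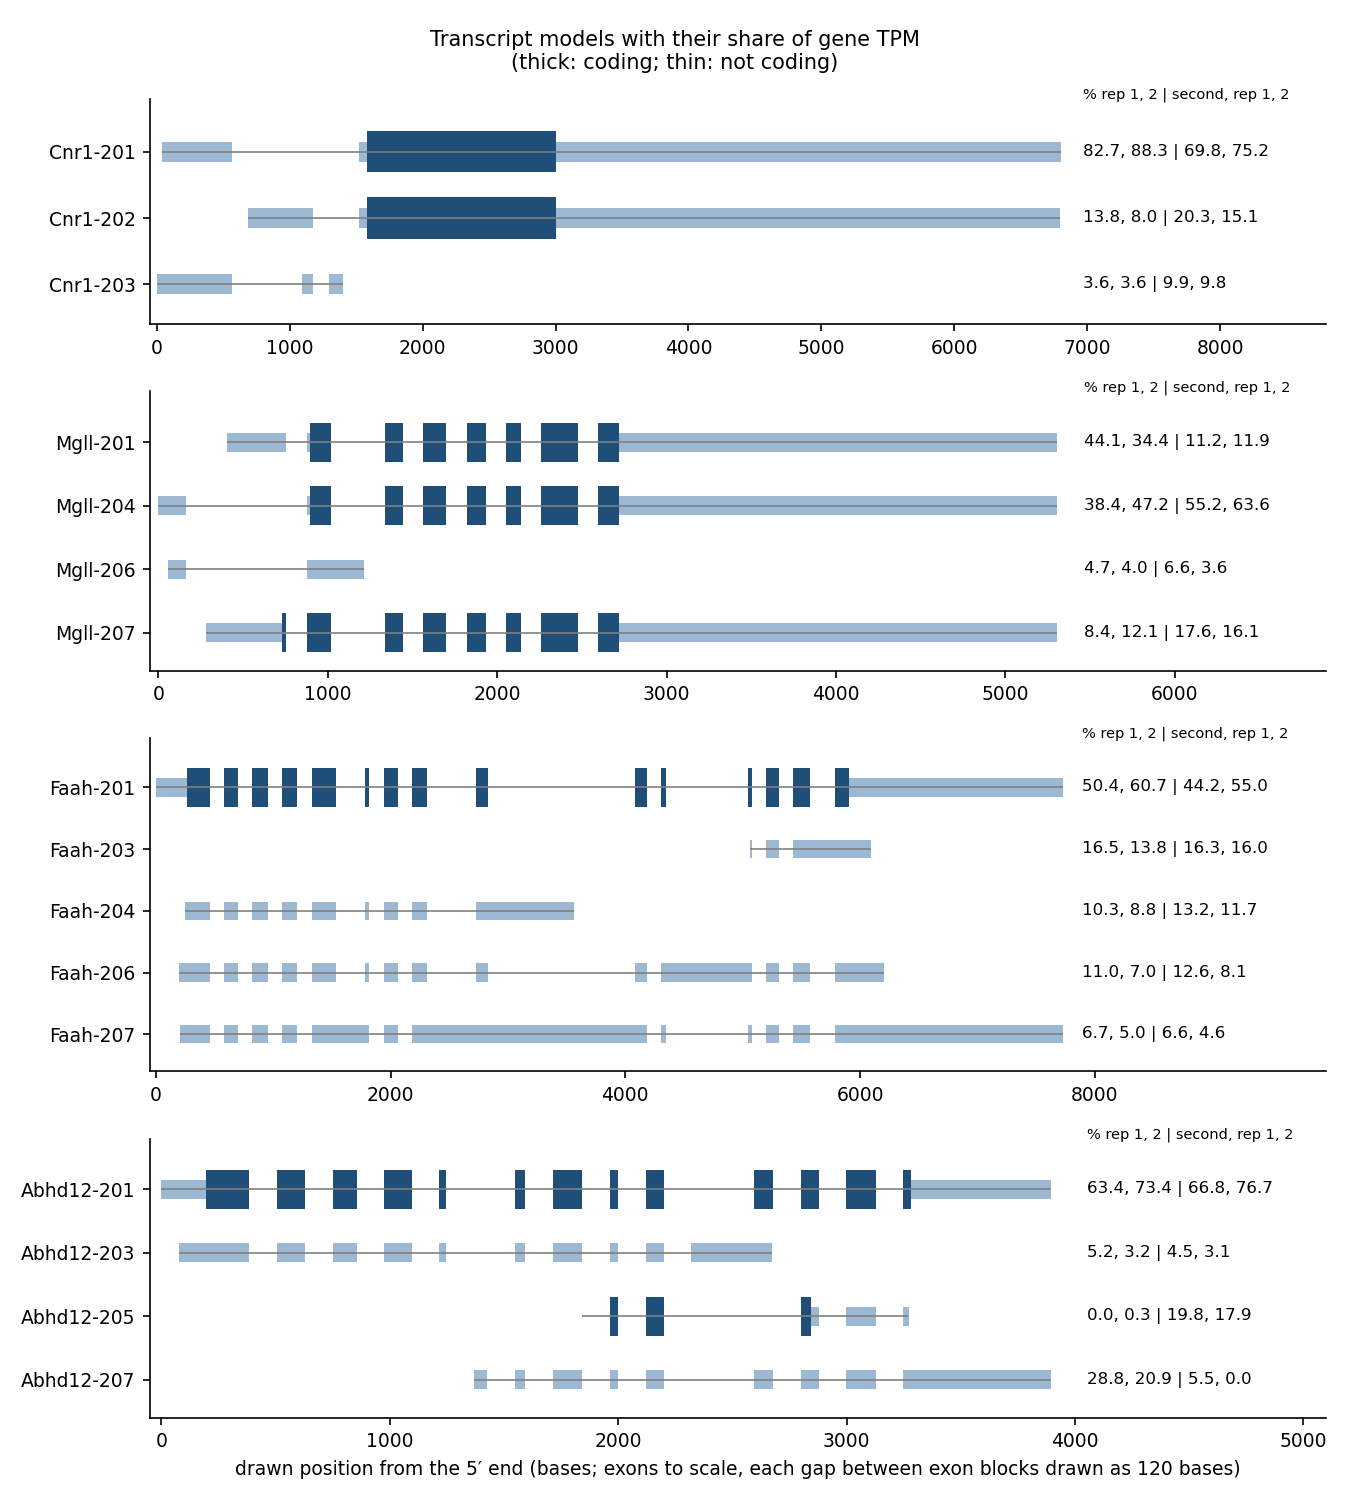
Exon models of the transcripts of Cnr1, Mgll, Faah and Abhd12 at 5% or more in either library with either quantifier, drawn to scale in bases from the 5′ end with introns shortened to a fixed gap. Thick bars are coding. The numbers give each transcript's percentage of gene TPM in replicates 1 and 2, then the same with the second quantifier, and the rows of Mgll-201, Abhd12-205 and Abhd12-207 differ most between quantifiers.

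Abhd6 and Napepld have only protein-coding transcripts in the annotation. Abhd6-201 and Abhd6-202 differ in their opening exons and at the 3′ end, where Abhd6-201 stops at position 8055861 and Abhd6-202 at 8056763. Abhd6-202 took 96.26% of Abhd6 TPM in replicate 1 and 77.98% in replicate 2, and Abhd6-201 3.74% and 19.62%. The TPM bounds of each transcript overlapped between the libraries, at 27.14 to 33.32 and 22.28 to 28.41 TPM for Abhd6-202. The upper bound of Abhd6-201 in replicate 1 was 4.74 TPM, above its lower bound of 3.16 TPM in replicate 2. The second quantifier put Abhd6-201 at 26.8% and 33.7%. Both transcripts encode the same 1008-base frame, so these differences in share lay outside the coding sequence. Napepld is described with the anandamide enzymes below.

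The gene total of Abhd12 was nearly equal in both libraries in TPM, at 165.91 and 165.36, while its counts scaled to library size were 161.4 and 183.8 CPM and its composition differed. Protein-coding Abhd12-201 was at 105.23 TPM in replicate 1, with bounds of 92.97 to 105.98, and at 121.40 TPM in replicate 2, with bounds of 110.5 to 122.5. The other Abhd12 transcripts summed to 60.7 TPM in replicate 1 and 44.0 TPM in replicate 2. Of 21341 coding transcripts at 1 TPM or more in both libraries, 4.43% had bounds apart and higher in replicate 2, and Abhd12-201 was the 1 such of 13 from these genes. A further 9.59% had bounds apart and lower in replicate 2, and 0 of the 13 did. The second quantifier gave Abhd12-201 109.95 and 122.41 TPM.

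The quantifiers gave similar amounts of Abhd12 RNA other than the coding form, 36.57% and 26.58% in the gene-table program and 33.2% and 23.3% in the second, and divided it differently. The gene-table program gave 28.79% and 20.92% to Abhd12-207, a processed transcript that opens with the 60-base exon printed above, and 0% and 0.27% to Abhd12-205. The second quantifier gave 5.47% and 0.0073% to Abhd12-207, and 19.8% and 17.9% to Abhd12-205. Abhd12-205 is a 353-base model annotated for nonsense-mediated decay with 0 bases of its own, so only reads across the junction that skips the 83-base exon set it apart. The level of either form is therefore uncertain in these tables.

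**Figure D3:**
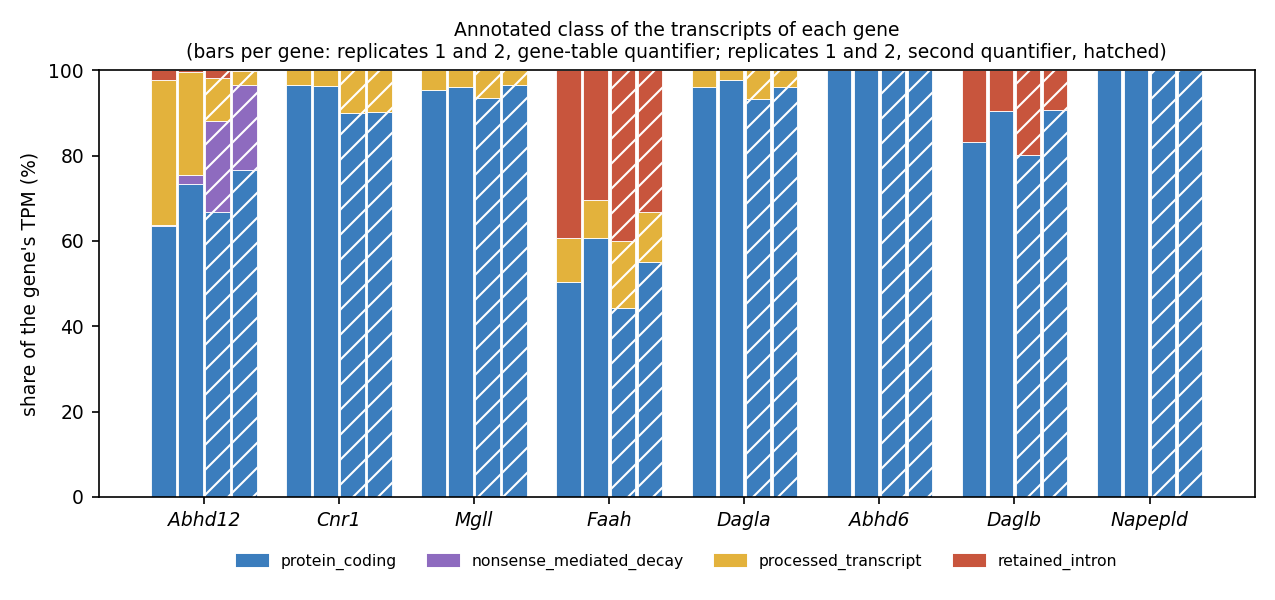
Share of each gene's TPM (percent, linear axis) by annotated transcript class, with 4 bars per gene for replicates 1 and 2 in the gene-table program and, hatched, in the second quantifier. Abhd12 and Faah have the smallest protein-coding shares, and in Abhd12 the class of the remainder changes with the quantifier.

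Anandamide and related N-acylethanolamines are released from their membrane precursors by Napepld and hydrolysed by Faah. Napepld (ENSMUSG00000044968.16, chr5:21662901-21701396, minus strand) encodes the phospholipase D known from hippocampal mossy fibres. It had the lowest level of the 8, at 11.81 TPM in replicate 1 and 9.94 TPM in replicate 2, a mean of 10.9 ± 1.32 TPM. Napepld-202 took 92.79% and 77.24% and Napepld-201 the rest, with the same 1188-base coding sequence in each. The second quantifier gave Napepld-202 81.3% and 74.2%. Napepld-201 has only 2 bases of its own, and the TPM bounds of each transcript overlapped between the libraries.

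Faah (ENSMUSG00000034171.13, chr4:115967145-116017926, minus strand) encodes fatty acid amide hydrolase, the main anandamide-degrading enzyme, known from the cell bodies and dendrites of principal neurons. It was at 71.50 TPM in replicate 1 and 60.65 TPM in replicate 2, a mean of 66.1 ± 7.67 TPM, with bounds that lay apart. The coding transcript Faah-201 was at 36.02 and 36.83 TPM, with overlapping bounds. The other Faah transcripts summed to 35.5 TPM and 23.8 TPM. Faah-201 thus made up 50.38% of the gene in replicate 1 and 60.73% in replicate 2.

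The remainder of Faah was mostly annotated as retained-intron RNA, at 39.27% and 30.43% of the gene. Faah-203, which keeps the 205-base intron whose beginning is printed above, took 16.54% and 13.82%, Faah-206 took 10.98% and 6.97%, and Faah-207 took 6.72% and 4.96%. The processed transcript Faah-204 took 10.35% and 8.84%. The second quantifier gave these 4 forms shares within about the same range, for example 16.3% and 16.0% for Faah-203. Faah-206 and Faah-207 had bounds apart and lower in replicate 2, the 2 such of 10 from these genes, and so did 2080 (18.0%) of 11531 transcripts of classes other than protein-coding at 1 TPM or more. Bounds apart and higher in replicate 2 were found for 0 of the 10 and for 0.650% of the 11531.

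Counted by coding transcripts alone, again chosen after seeing the data, Faah and Dagla changed places. Faah-201 averaged 36.4 ± 0.573 TPM and Dagla-201 48.7 ± 3.85 TPM. The ratio of Faah to Dagla was 1.33 and 1.29 over all transcripts and 0.700 and 0.801 over coding ones. The bounds of Faah-201 (32.23 to 36.40 and 33.61 to 37.00 TPM) lay below those of Dagla-201 (44.95 to 50.20 and 42.20 to 45.33 TPM) in both libraries. The other 27 pairs of genes kept their order by mean coding TPM in the gene-table program. The second quantifier gave coding ratios of Faah to Dagla of 0.687 and 0.789, and it also placed coding Faah (29.4 and 29.8 TPM) below Abhd6 (34.98 and 32.62 TPM) and Cnr1 (64.7 and 62.6 TPM) below Mgll (70.1 and 66.4 TPM). It kept 25 of the 28 pairs in order in both libraries.

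**Figure D4:**
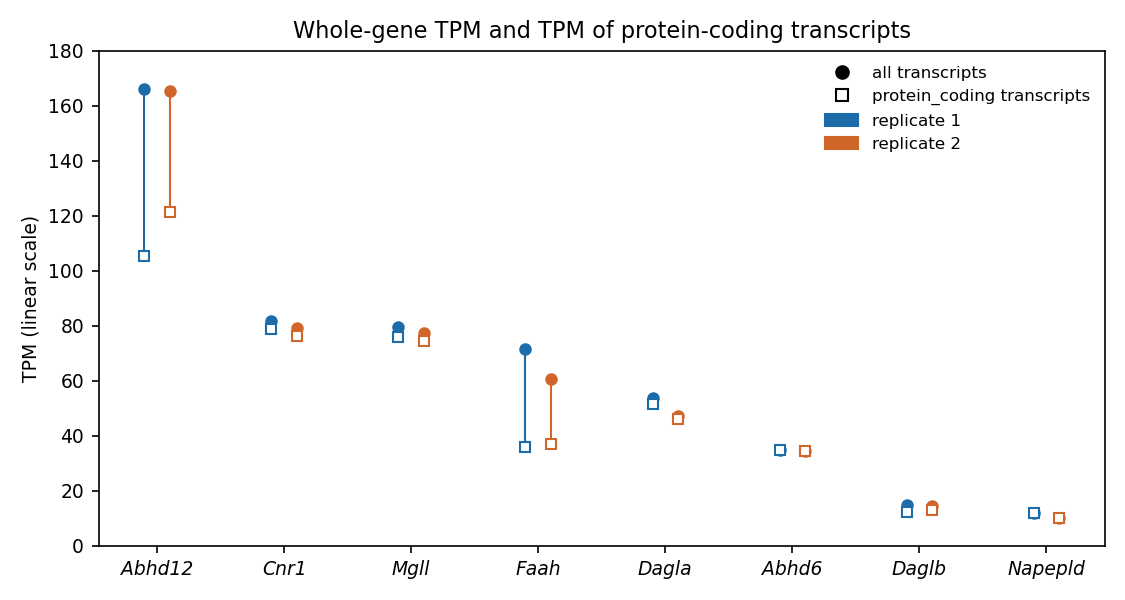
TPM (linear axis) of each gene over all transcripts (filled circles) and over protein-coding transcripts (open squares) in each library, joined by a line. Abhd12 and Faah show the long drops, and the open squares of Faah (36.02 and 36.83 TPM) lie below those of Dagla (51.45 and 46.00 TPM).

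Of the 10244 detected genes with both coding and other transcripts, 31.7% had a protein-coding share under 75% in both libraries, as had Faah and Abhd12, 2 of the 6 such genes here. The leading transcript was protein-coding for all 8 genes, beside 88.1% of genes with several transcripts. The protein-coding share was higher in replicate 2 for 5 of the 6 genes, Cnr1 being the exception, and for 67.5% of all genes. With the second quantifier it was higher for 6 of 6, beside 68.3%. The median share over all genes moved from 79.6% to 84.4% between the libraries, so Faah and Abhd12 moved in the direction that most genes did.

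No member passed the edgeR test between the libraries. It asks only whether a gene differed more than genes of similar abundance, whose spread was estimated from these same 2 libraries. A count of 0 of the 8 therefore sets no bound on their differences. In edgeR on rounded expected counts, 130 of 16123 genes passed an adjusted p of 0.05, 0.806% of those tested (0.372% higher and 0.434% lower in replicate 2), and 0 of the 8 genes were among them. At an unadjusted edgeR p under 0.05 there were 778 of the 16123 genes, again with 0 of the 8. With relative log expression (RLE) size factors in the same test, 130 genes and 0 of the 8 passed the adjusted threshold. The largest log2 ratio of replicate 2 over replicate 1 was that of Abhd12, at 0.19 with a model standard error of 0.205 and an edgeR adjusted p of 1.00. The lowest ratio was that of Napepld, at -0.14 with a standard error of 0.255 and an edgeR adjusted p of 1.00. Cnr1 was at 0.07, Daglb at 0.15, Mgll at 0.11, Abhd6 at 0.00, Dagla at -0.05 and Faah at -0.07.

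Scaling to the ERCC RNAs instead shifted the median log2 ratio of all genes to -0.23, which by itself turns any ratio between 0 and that size, so no sign is read from the ratios of Cnr1, Daglb, Mgll, Abhd6 and Abhd12. By the narrower measure of TPM bounds, Dagla, Napepld and Faah were lower in replicate 2 (3 of 8, beside 2476, or 19.0%, of the detected protein-coding genes) and none of the 8 was higher (beside 4.29%). All 5 choroid plexus markers passed the edgeR test with higher values in replicate 2, and the part of that RNA in the members' values was not tested.

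The 33 further genes of the pathway included 1 group, a list of 5 other receptors, with no detected member. At 1 TPM or more in both libraries were 27 of the 33, beside 13016 protein-coding genes in all, with a median of 25.6 TPM over the list. Cnr2, the CB2 receptor of immune cells, had 0 and 3 expected counts, Gpr55 had 2 and 7, and the heat-gated channel Trpv1 had 0 and 5. Gpr18 and Gpr119 had 0 counts in both gene tables, which allows up to 3 counts in each library. Together these 5 receptors summed to 0.04 and 0.26 TPM, against 81.53 and 79.08 TPM for Cnr1. With the second quantifier they summed to 0.249 and 0.313 TPM, of which Cnr2 had 10.5 and 10.1 estimated counts. The markers of microglia, the cells in which Cnr2 is best known, were present at 67.98 and 81.65 TPM in sum.

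All 9 receptor partners were detected. Gnao1, the G protein subunit of the Go class, was the highest at 319.14 and 303.67 TPM, and the inhibitory subunit Gnai3 the lowest at 14.47 and 13.00 TPM, while Gnai2 and Gnai1 had means of 117.4 ± 14.3 and 88.0 ± 4.40 TPM. Sgip1, which holds CB1 at the surface, was at 138.90 and 128.93 TPM, and Cnrip1, which binds its tail, at 54.07 and 50.43 TPM. Gprasp1, a sorting protein that sends receptors to lysosomes, was at 170.98 and 163.59 TPM. The arrestins Arrb1 and Arrb2 had means of 80.4 ± 8.17 and 50.7 ± 8.94 TPM.

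The genes that supply diacylglycerol were all detected, 5 of 5. Gnaq, the G protein subunit that switches on phospholipase C, was at 91.89 and 90.48 TPM and its relative Gna11 at 57.65 and 56.26 TPM. Of the phospholipases, Plcb1 was at 73.79 and 61.66 TPM, above Plcb4 at 16.99 and 11.76 TPM and Plcb3 at 8.96 and 7.63 TPM. Plcb1 exceeded both others in each library.

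Among 8 other genes for N-acylethanolamine synthesis, 7 were detected, and several lay above Napepld. Gde1, a phosphodiesterase of an alternative route to anandamide, was at 99.08 and 100.87 TPM. Abhd4, which starts that route, was at 25.39 and 25.75 TPM, and the related phosphodiesterase Gdpd1 at 24.13 and 21.98 TPM. Pla2g16 followed at 19.73 and 22.59 TPM, then Hrasls at 6.10 and 7.69 TPM. The calcium-dependent acyltransferase Pla2g4e was at 5.91 and 6.81 TPM. Gdpd3 was at 3.88 and 2.20 TPM, and Hrasls5 had 0 and 1 expected counts.

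Naaa, the lysosomal acid amidase that also hydrolyses N-acylethanolamines, was at 23.24 and 24.81 TPM, below Faah in each library. Ptgs2, the cyclooxygenase that oxidises both ligands, was at 7.75 and 9.34 TPM. The 4 lipid carriers were detected, with Fabp5 at 54.49 and 63.02 TPM, Scp2 at 53.10 and 49.23, Fabp3 at 43.13 and 44.28 and Fabp7 at 29.44 and 24.53. Of the 27 pathway genes tested in edgeR, 0 passed between the libraries at an adjusted p of 0.05, beside 0.806% of all 16123 genes. An unadjusted edgeR p under 0.05 was found for 0 of the 27, beside 778 of the 16123. Counts of 0 in 27 genes do not set them apart from all genes.

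**Figure D5:**
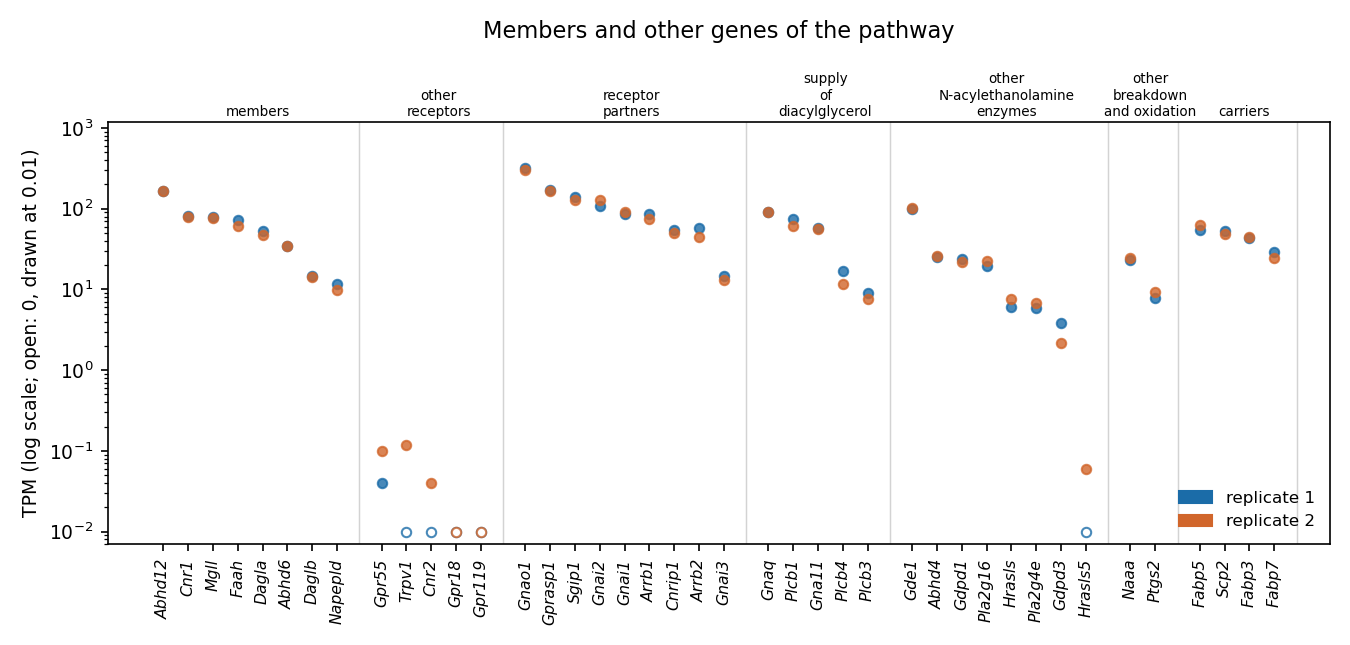
TPM (log axis) of the 8 genes and of the 33 pathway genes by role, with 1 point per library and open points for a listed 0. The 5 other receptors lie below 1 TPM, while Gnao1 and Gprasp1 lie above Cnr1.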

How the data were processed

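Hippocampal total RNA of 2 mice was analysed, 1 library each, mapped to 1 group. Both carry 1 donor entry in the labels, under different animal numbers, and nothing else says how the samples were taken, so the spread may be partly technical. For each library the authors deposited a gene table, a transcript table and a second transcript table on mm10 with GENCODE M21, per the labels' files. The expected counts deposited by the authors are estimated reads for each feature, unscaled. The deposited TPM are scaled by length and depth. The deposited percent values give a transcript's part of the gene's TPM. The first tables were made from transcriptome alignments and the second from reads; the programs, their versions and the level of the deposited bounds are not stated in the sources used here. Second-table TPM was summed per gene here. Whether reads of the CAST/EiJ allele were lost on this reference was not tested.

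The 8 genes, the 33 pathway genes and the marker lists, and the rule that names them all plus transcripts at 5% or more, were chosen with earlier results of these data known. Genes at 1 TPM or more were called detected. edgeR 4.0.16 (R 4.3.3) fitted rounded expected counts with an intercept, TMM scaling and trended dispersion, for genes at 1 CPM or more in at least 1 library, and set each residual deviance against chi-square with 1 degree of freedom, with Benjamini-Hochberg adjustment at 0.05. Log2 ratios used a prior count of 2. The p-values compare libraries. With 2 animals no exact permutation test reaches 0.05. Alternatives were RLE size factors from edgeR, ERCC scaling, no filter, a common dispersion, the second quantifier, TPM over nuclear protein-coding genes and each library alone. The test was tried on simulated data over 16123 genes. The deposited bounds cover counting and read assignment only. The reads carry no molecular identifiers. Sequences were read from GENCODE M21 transcripts and the RefSeq promoter table.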

Additional observations from a re-analysis of the deposited data

How the results depend on the processing

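The order of the 8 genes kept 27 of 28 pairs with the second quantifier, 27 with protein-coding transcripts only (chosen after seeing the data) and 28 in each library alone. Levels moved by more than the spread between the libraries with the second quantifier for Cnr1 (70.6 TPM), Dagla (42.6), Daglb (12.6), Mgll (71.9), Abhd6 (33.8), Abhd12 (162.1) and Napepld (9.46). With TPM rescaled to nuclear protein-coding genes they were 161.7 for Cnr1, 101.2 for Dagla, 29.2 for Daglb, 157.9 for Mgll, 69.7 for Abhd6, 333.7 for Abhd12, 21.9 for Napepld and 132.9 for Faah, because the sum is smaller by construction. With coding transcripts only they were 77.4 for Cnr1, 12.59 for Daglb, 75.005 for Mgll, 113.3 for Abhd12 and 36.4 for Faah. Shares of the leading transcript moved with the second quantifier to 72.5% for Cnr1-201, 94.7% for Dagla-201, 59.4% for Mgll-204 and 69.7% for Abhd6-202, and the cause was not tested. ERCC scaling shifted the median log2 ratio of all genes by -0.23 and turned the sign for Cnr1 (-0.16), Daglb (-0.084), Mgll (-0.12), Abhd6 (-0.23) and Abhd12 (-0.043), so no direction between libraries is drawn for them. Genes past the threshold numbered 130 with the settings reported, 94 with ERCC scaling, 123 without the filter on low counts, 119 with the second quantifier and 341 with a common dispersion, and 0 of the 8 in each. The lowest edgeR adjusted p of the 8 under any of these was 0.880, for Abhd12 without the filter. No paired analysis was possible because the labels define 1 group. With only 2 libraries, 0 calls among the 8 set no bound on their differences, and transcripts with few bases of their own are limited by read assignment as well as by depth.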
